A study of Mus musculus with 8 samples.

Results

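The 48 genes described here are type I interferon-stimulated genes, chosen by symbol from the deposited expression table. A symbol was kept where its value reached 1 CPM, a read count scaled to the total counted in genes of that library, in 2 or more of the 8 libraries. All 48 of the 48 symbols were in the table and passed, out of 24421 genes listed and 12194 genes kept by the same filter. No value of any comparison entered the choice, although results of these data were known when the symbols were listed.

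The cells were macrophages grown from mouse marrow, and their poly-A RNA was sequenced. Wild-type controls (WT) were set against cells of Rbpj f/f;LysMCre animals (Rbpj KO), in which Cre from the LysM locus removes the floxed Rbpj gene. RNA was taken from both genotypes at day 0 without TNF and 2 days into treatment with 40 ng/ml TNF. This gave 4 groups of 2 libraries, numbered replicate 1 and replicate 2. LysM-Cre is active across myeloid cells, not in macrophages alone, and Rbpj reads remained in the knockout. Whether the controls carried Cre was not given in the sources used here. Since untreated cells were sampled at day 0 alone, an effect of TNF and one of time in culture cannot be told apart. The design speaks of independent experiments, but whether separate animals stand behind a group's libraries is not stated in the labels, and p-values therefore measure the spread between these samples.

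Type I interferons signal through the receptor IFNAR and the kinases JAK1 and TYK2 to the transcription factor complex ISGF3, of which STAT2 and IRF9 are parts. ISGF3 binds a DNA element called the ISRE and switches on genes for antiviral effectors, nucleic acid sensors and further parts of the same pathway. Macrophages keep a low tonic level of this programme and raise it strongly on infection or on contact with interferon. In TNF-treated macrophages, autocrine interferon-beta is a known route to such genes, and RBP-J, the transcription factor through which Notch signals act on DNA, is known to restrain TNF-driven osteoclast formation.

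Depth ran from 9855859 reads (knockout, TNF, replicate 1) to 35653203 reads, and 3 reads were worth 0.0841 to 0.304 CPM. Rbpj, the targeted gene, ranged from 178 to 226 CPM in the 4 wild-type libraries and from 21.4 to 38.9 CPM in the 4 knockout libraries, so every knockout library was below every wild-type library. All 9 macrophage markers listed were kept by the filter and summed to between 4965 and 10077 CPM per library. The 8 osteoclast markers summed to 47.7 to 138 CPM at day 0, 4488 to 6075 CPM in wild type after TNF and 16696 to 41146 CPM in the knockout after TNF.

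Promoter sequences show what these genes have in common outside the measurements. The RefSeq promoter table of build GRCm38.p6, which gives 250 bases before and 50 after each start site, held 37 of the 48 genes. The ISRE core searched was GAAA, any 2 bases and GAAA again, on both strands, and 19 of the 37 genes (51.4%; 95% Wilson interval 35.9% to 66.6%) had it. Of all 27025 genes in that source, 3.99% had it, and of the 9358 genes tested here that it held, 3.93%. In the 250 bases before the start alone, the shares were 43.2% of the 37 genes and 3.46% of all. On both strands, the NF-kB form GGG, any 2 bases and TTTCC was in 0 of the 37 genes (1.90% of all genes) and the RBP-J core GTGGGAA in 2 (7.25% of all). No ISRE core match overlapped a match to either of these forms. A further form searched, GAS (TTC, any 3 bases and GAA), was in 5 of the 37 genes (13.5%, and 9.55% of all genes). In Bst2, 1 ISRE core match overlapped a match to it. A match is a run of letters and not a measured binding site, and the absence of one says only that these letters are not in the window.

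Below are the 250 bases before the start site of 7 genes, read 5′ to 3′ in the direction of the gene, with ISRE core matches in capitals. Isg15, Ifit1, Ifit3 and Rsad2 are classical members with 3, 2, 2 and 1 matches. Slfn9 and Slfn1 lie in 1 gene cluster on chromosome 11, of which Slfn9 has 1 match and Slfn1 none, and which lay near opposite ends of the range of replicate differences. Cxcl10 has 1 match and was higher after TNF in replicate 1 only. In GRCm38.p6 the stretches are chr4:156200819-156201068 on the minus strand for Isg15, chr19:34640639-34640888 on the plus strand for Ifit1, chr19:34583279-34583528 on the plus strand for Ifit3 and chr12:26456453-26456702 on the minus strand for Rsad2. They are chr11:82991831-82992080 on the minus strand for Slfn9, chr11:83116570-83116819 on the plus strand for Slfn1 and chr5:92348890-92349139 on the minus strand for Cxcl10.
Isg15: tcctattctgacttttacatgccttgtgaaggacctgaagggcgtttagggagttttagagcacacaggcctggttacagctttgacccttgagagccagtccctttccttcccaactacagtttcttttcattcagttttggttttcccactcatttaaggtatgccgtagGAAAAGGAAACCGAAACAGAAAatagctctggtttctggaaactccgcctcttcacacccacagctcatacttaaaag
Ifit1: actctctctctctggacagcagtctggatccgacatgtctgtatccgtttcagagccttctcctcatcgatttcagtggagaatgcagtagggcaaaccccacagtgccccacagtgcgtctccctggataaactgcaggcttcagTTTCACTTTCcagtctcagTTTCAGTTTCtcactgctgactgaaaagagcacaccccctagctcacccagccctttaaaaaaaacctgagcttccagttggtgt
Ifit3: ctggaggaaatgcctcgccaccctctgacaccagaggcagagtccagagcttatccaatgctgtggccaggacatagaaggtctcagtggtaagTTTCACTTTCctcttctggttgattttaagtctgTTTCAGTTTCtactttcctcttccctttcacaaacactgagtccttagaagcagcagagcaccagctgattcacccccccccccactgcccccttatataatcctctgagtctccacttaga
Rsad2: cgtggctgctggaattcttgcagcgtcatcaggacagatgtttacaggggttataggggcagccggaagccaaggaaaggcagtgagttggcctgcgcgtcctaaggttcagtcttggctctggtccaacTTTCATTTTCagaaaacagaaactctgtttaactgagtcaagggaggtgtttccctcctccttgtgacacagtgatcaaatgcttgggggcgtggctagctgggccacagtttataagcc
Slfn9: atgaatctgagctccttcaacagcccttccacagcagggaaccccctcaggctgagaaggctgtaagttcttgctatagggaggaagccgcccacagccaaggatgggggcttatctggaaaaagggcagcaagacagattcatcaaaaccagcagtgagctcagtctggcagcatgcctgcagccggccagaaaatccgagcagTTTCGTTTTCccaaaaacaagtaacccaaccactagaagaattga
Slfn1: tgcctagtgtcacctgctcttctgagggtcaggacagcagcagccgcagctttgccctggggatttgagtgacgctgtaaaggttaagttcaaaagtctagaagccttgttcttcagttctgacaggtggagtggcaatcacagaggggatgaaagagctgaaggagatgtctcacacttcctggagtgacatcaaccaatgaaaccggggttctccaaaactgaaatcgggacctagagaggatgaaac
Cxcl10: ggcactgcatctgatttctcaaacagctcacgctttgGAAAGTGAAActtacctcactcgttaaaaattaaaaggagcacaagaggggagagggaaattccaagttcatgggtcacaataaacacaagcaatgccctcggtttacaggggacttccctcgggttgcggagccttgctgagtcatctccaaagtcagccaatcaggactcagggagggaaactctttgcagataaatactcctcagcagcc
The matches of Isg15 overlap each other and start at bases -78, -72 and -66 from the start site, those of Ifit1 at -104 and -85, and those of Ifit3 at -156 and -122. That of Rsad2 starts at -120, that of Slfn9 at -45 and that of Cxcl10 at -213.

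**Figure D1:**
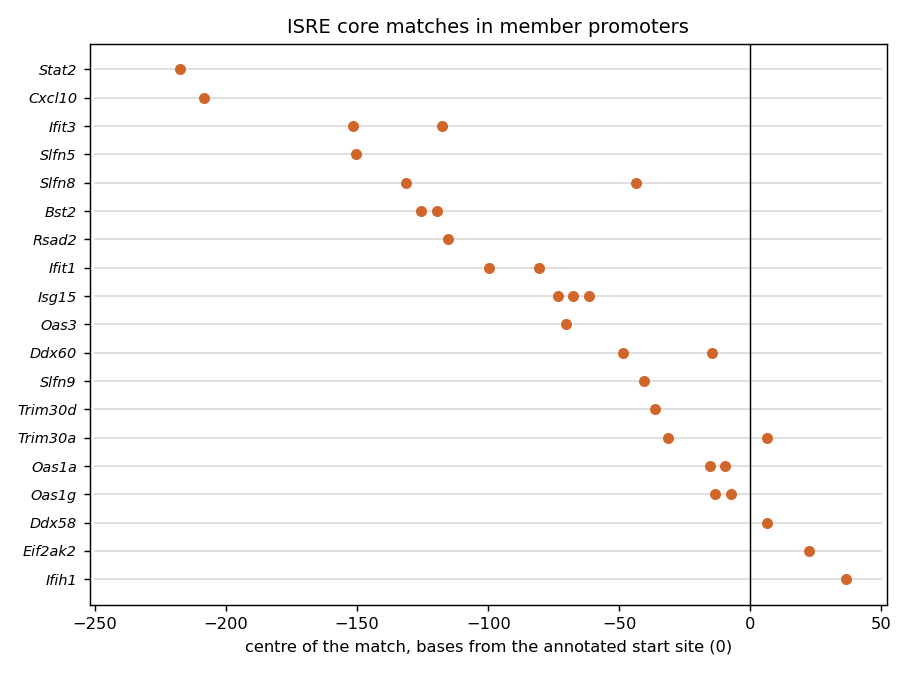
Positions of ISRE core matches (centre of each match in bases from the annotated start site, x axis) in the 19 genes that had one, 1 line per gene. Most points lie in the 200 bases before the start, from Stat2 farthest upstream to Ifih1 just after it.

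Expression of the 48 genes split the libraries by replicate number before it split them by TNF or genotype. The median gene stood at 27.4, 18.9, 36.1 and 20.4 CPM in the replicate 1 libraries of wild type at day 0, wild type after TNF, knockout at day 0 and knockout after TNF. In the replicate 2 libraries of the same groups it stood at 113, 178, 232 and 53.6 CPM. Every replicate 2 library was thus above every replicate 1 library, and the order of the 4 groups differed between the numbers. Values of 8 libraries below keep this order of groups, replicate 1 first. In bulk RNA, fewer cells that express a gene and less RNA per cell cannot be told apart.

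**Figure D2:**
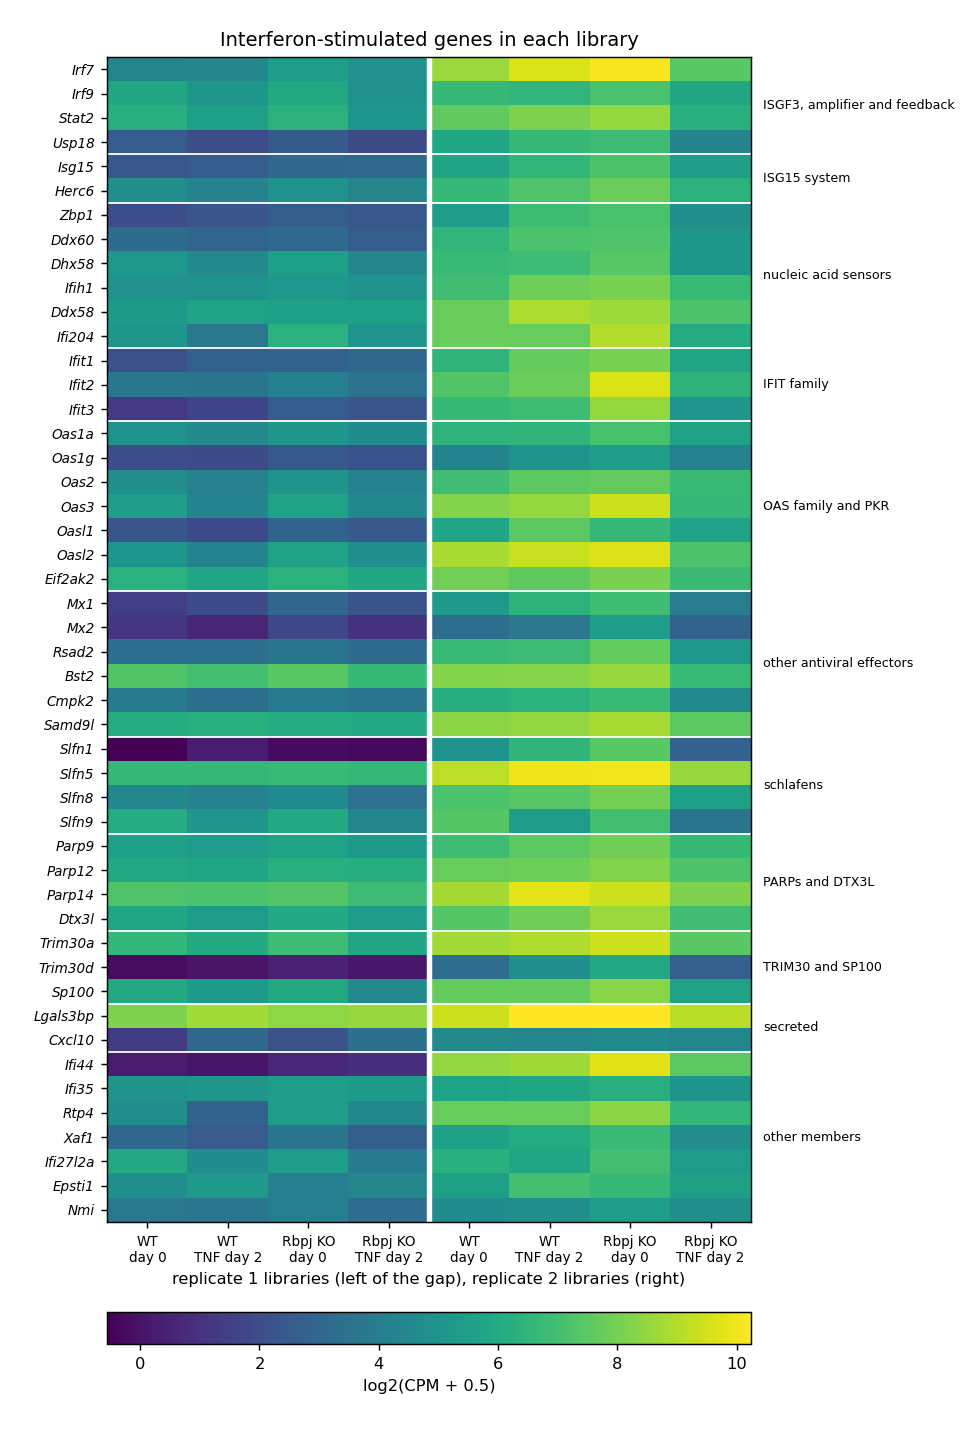
Level of each gene (rows, grouped by role) in each library (columns) as log2(CPM + 0.5), with replicate 1 libraries left of the gap and replicate 2 libraries right of it. The right side is brighter in nearly every row, and the knockout TNF column is the darkest of the right side, with a median of 53.6 CPM.

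All 48 genes were higher in replicate 2 than in replicate 1 in wild type at day 0, in wild type after TNF and in the knockout at day 0. In the knockout after TNF 46 were, the exceptions being Ifi35 and Slfn9. Thus 46 of 48 were higher in replicate 2 in all 4 groups, where 22.7% of all genes tested were. For 39 of them the lowest replicate 2 library was above the highest replicate 1 library, against 9.19% of all genes tested. Both counts, and the calls below, include Slfn1 and Trim30d. These 2 genes reached 1 CPM in replicate 2 libraries only, so the filter kept them through the side where they were higher. The median difference on the log2(CPM + 0.5) scale was 2.33, 3.09, 2.87 and 1.76 in the 4 groups, beside -0.05, -0.27, -0.10 and -0.16 for all genes tested.

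With group as a term, limma over all 12194 genes called 46 of the 48 genes higher in replicate 2 and 0 lower, at an adjusted p under 0.05 (background 15.8% higher and 30.4% lower). The list median was 2.59, beside -0.15 for all genes tested. The 2 not called were Slfn9 (adjusted p = 0.299) and Ifi35 (adjusted p = 0.0937). Counts from edgeR (background 25.4% higher) and DESeq2 (27.9%) on the recovered reads and from limma after median-ratio rescaling were 47 each. Leaving out any 1 library gave a list median of 2.32 to 2.77 in limma. Median-ratio rescaling moved the median of all genes tested from -0.15 to 0.03 on the log2 scale in this comparison and from -0.12 to -0.01 for TNF in wild type, and the median of the 48 genes here from 2.59 to 2.78. The genes were also among the largest replicate differences of the whole table: 8 of the top 20, 18 of the top 50 and 28 of the top 100 genes ranked by the rise from replicate 1 to replicate 2.

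ISGF3 and feedback genes showed the split with different sizes. Irf7, the interferon-induced factor that amplifies interferon-alpha production, stood at 20.8, 21.2, 44.6 and 29.8 CPM in the replicate 1 libraries and 393, 786, 1129.6 and 179.7 CPM in the replicate 2 libraries. No replicate 1 value came near the lowest replicate 2 value, and the log2 difference was 4.15 ± 0.39 (moderated SE, 4 pairs of libraries; limma adjusted p = 0.00102). Usp18, which removes ISG15 from proteins and blocks IFNAR signalling, stood at 5.43, 3.65, 5.15 and 3.35 CPM in the replicate 1 libraries and 60.5, 102, 113 and 18.7 CPM in the replicate 2 libraries. Stat2 and Irf9, parts of ISGF3, differed less. Stat2 stood at 73.0, 46.3, 83.4 and 33.7 CPM in the replicate 1 libraries and 194, 277, 373 and 78.7 CPM in the replicate 2 libraries. Irf9 stood at 58.9, 35.2, 64.3 and 31.3 CPM in the replicate 1 libraries and 102, 93.0, 141 and 57.7 CPM in the replicate 2 libraries. For both, the knockout TNF library of replicate 2 was below the highest replicate 1 library, so the replicate numbers overlapped across groups.

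Among the ISG15 genes, Isg15, a ubiquitin-like protein joined to other proteins, stood at 4.70, 5.58, 8.15 and 8.42 CPM in the replicate 1 libraries and 53.3, 93.9, 148 and 44.8 CPM in the replicate 2 libraries. Herc6, the main ligase for ISG15 in mice, stood at 26.8, 18.2, 30.4 and 20.3 CPM in the replicate 1 libraries and 101, 155, 227 and 81.4 CPM in the replicate 2 libraries. In each, all 4 replicate 2 libraries were above all 4 of replicate 1.

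Effectors of the IFIT family, which bind foreign RNA and block its translation, had larger differences than most. Ifit1 stood at 3.86, 6.37, 6.36 and 8.12 CPM in the replicate 1 libraries and 91.4, 203, 267 and 55.3 CPM in the replicate 2 libraries, a log2 difference of 4.32 ± 0.40 (limma adjusted p = 0.000973). Ifit3 stood at 1.90, 2.55, 5.50 and 4.36 CPM in the replicate 1 libraries and 102, 117, 372 and 33.1 CPM in the replicate 2 libraries, with a difference of 4.86 ± 0.49 (limma adjusted p = 0.00116). For Ifit2 the values were 12.4, 12.1, 16.8 and 10.96 CPM in the replicate 1 libraries and 158, 222, 784 and 84.2 CPM in the replicate 2 libraries, and the difference was 4.04 ± 0.39 (limma adjusted p = 0.00105). The knockout at day 0 held the highest value of all 3 in replicate 2, and no replicate numbers overlapped.

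Oligoadenylate synthetases make the signal for RNase L, and the OAS-like proteins are their relatives. Oas3 stood at 43.2, 19.6, 51.7 and 22.1 CPM in the replicate 1 libraries and 305, 366, 691 and 98.2 CPM in the replicate 2 libraries. Oasl1, which lacks synthetase activity, stood at 4.34, 3.09, 7.08 and 5.07 CPM in the replicate 1 libraries and 54.1, 182, 99.0 and 51.9 CPM in the replicate 2 libraries, a log2 difference of 4.03 ± 0.40 (limma adjusted p = 0.00108). The 7 genes of this group, which include Eif2ak2 (the RNA-activated kinase PKR), had a median replicate difference of 2.32, 3.40, 3.03 and 2.13 in the 4 groups.

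Other effectors included Mx1, a GTPase that traps viral nucleocapsids, at 2.26, 3.39, 7.61 and 4.16 CPM in the replicate 1 libraries and 37.9, 86.4, 117 and 15.5 CPM in the replicate 2 libraries. Rsad2 (viperin), which makes a chain-terminating nucleotide, stood at 9.99, 9.54, 12.2 and 8.83 CPM in the replicate 1 libraries and 109, 113, 208 and 36.1 CPM in the replicate 2 libraries. Bst2 (tetherin), which holds virions at the cell surface, differed less, at 159, 127, 175 and 101 CPM in the replicate 1 libraries and 301, 308, 379 and 108 CPM in the replicate 2 libraries. The replicate numbers overlapped for Bst2 and not for Mx1 or Rsad2.

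Schlafens, growth and RNA regulators encoded side by side on chromosome 11, held some of the largest and smallest differences. Slfn1 was near the detection limit in replicate 1, with 5, 27, 10 and 3 reads, and had 833, 2127, 4002 and 127 reads in replicate 2. Its CPM ratio of replicate 2 to 1 was 170 in wild type at day 0 (95% counting interval 72.4 to 524), 119 after TNF (81.6 to 181), 497 in the knockout at day 0 (270.2 to 1038) and 22.0 after TNF (7.36 to 108). These intervals cover counting error only, and the log2 difference over the 4 groups was 5.64 ± 0.66 (limma adjusted p = 0.00164). Slfn1 reached 1 CPM in replicate 2 libraries only, so the filter kept it through the side where it was higher. Its replicate test is therefore no independent support for the difference. Slfn9 by contrast stood at 66.6, 32.8, 66.1 and 20.6 CPM in the replicate 1 libraries and 167, 41.7, 124 and 11.7 CPM in the replicate 2 libraries. Here the knockout TNF library of replicate 2 was the lowest of all 8, and the values followed TNF more than the replicate number. Slfn8 stood at 21.8, 18.0, 24.3 and 11.1 CPM in the replicate 1 libraries and 146, 174, 254 and 47.6 CPM in the replicate 2 libraries, with no overlap between the numbers.

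Ifi44, an interferon-induced protein with antiviral activity, had the largest difference of the 48 genes. It had 19, 20, 30 and 14 reads in the replicate 1 libraries, and 9633, 9675, 19021 and 3443 reads in those of replicate 2. Its CPM ratio of replicate 2 to 1 was 516 (95% counting interval 330.3 to 858), 731 (473 to 1198), 788 (552 to 1169) and 128 (76.1 to 234) in the 4 groups, and the log2 difference was 8.12 ± 0.39 (limma adjusted p = 0.000459). Ifi44l, the adjoining gene on chromosome 3 and not among the 48, had 0 reads in all 4 replicate 1 libraries and 2809, 1612, 4671 and 457 reads in replicate 2. Against a floor of 3 reads per library it was at least 953-fold, 812-fold, 1935-fold and 79.2-fold higher in replicate 2. Ifi44 lies at 151730922 to 151749960 and Ifi44l at 151758737 to 151762892 on the minus strand of chromosome 3 (GRCm38).

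Trim30d, a TRIM-family relative of the signalling regulator Trim30a, was also rare in replicate 1. It stood at 0.364, 0.505, 0.858 and 0.609 CPM in the replicate 1 libraries and 9.46, 29.0, 62.5 and 6.28 CPM in the replicate 2 libraries. The log2 difference was 4.14 ± 0.48 (limma adjusted p = 0.00159). Trim30d too reached 1 CPM in replicate 2 libraries only, so its replicate test is no independent support for the difference. Sp100, a component of PML nuclear bodies, stood at 62.6, 39.8, 62.8 and 23.5 CPM in the replicate 1 libraries and 208, 203, 321 and 50.1 CPM in the replicate 2 libraries. Cxcl10, the chemokine that draws CXCR3-bearing T cells, stood at 2.11, 8.13, 3.90 and 10.2 CPM in the replicate 1 libraries and 22.3, 21.3, 23.0 and 20.9 CPM in the replicate 2 libraries. The 4 replicate 2 values of Cxcl10 lay within 20.9 to 23.0 CPM, while in replicate 1 both TNF libraries were above both day 0 libraries. Parp9, Parp12, Parp14 and Dtx3l, which act in ADP-ribosylation and ubiquitin transfer, had median differences of 1.56, 2.31, 2.12 and 1.36 in the 4 groups, below those of the IFIT family (4.40, 4.89, 5.51 and 2.79).

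**Figure D3:**
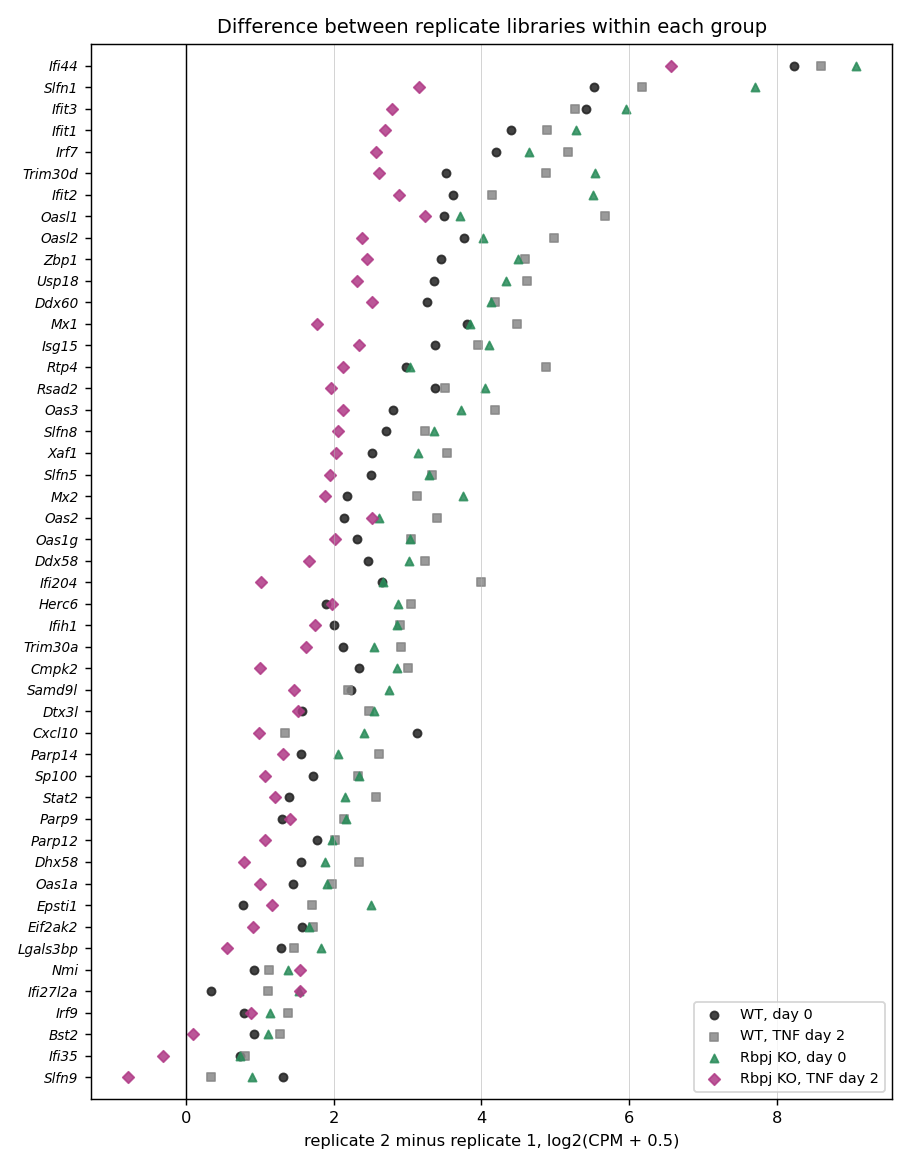
Difference between replicate 2 and replicate 1 within each of the 4 groups (x axis, log2(CPM + 0.5)), 1 row per gene ordered by the fitted difference. Ifi44 leads at 8.12, all points but those of Ifi35 and Slfn9 in the knockout after TNF lie right of 0, and the knockout TNF points are mostly the leftmost of a row.

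Across the 48 genes, the replicate differences of any 2 of the 4 groups had Pearson correlations of 0.846 to 0.943, a description over genes measured in the same libraries. Genes with and without an ISRE core match overlapped in size: the median fitted replicate difference was 2.61 (0.44 to 4.86) in the 19 genes with a match and 2.23 (0.49 to 8.12) in the 18 without.

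Markers of other cell types differed between the replicate numbers too. Neutrophil markers (8 of 9 kept) summed to 145 and 836 CPM (replicates 1 and 2) in wild type at day 0, 60.8 and 139 after TNF, 187 and 1006 in the knockout at day 0 and 33.8 and 50.2 after TNF, higher in replicate 2 in all 4 groups. Stromal markers (all 6 summed, 5 of them kept) went the other way, at 134 and 7.16, 162 and 33.7, 184 and 4.62, and 209 and 6.22 CPM. Conventional dendritic cell markers (all 7 summed, 6 of them kept) reached 12.4 and 20.3, 58.4 and 566, 18.0 and 95.8, and 99.6 and 394 CPM. Plasmacytoid dendritic cell markers (all 8 summed, 5 of them kept) reached 116 and 162, 57.5 and 72.7, 115 and 185, and 48.5 and 60.5 CPM. With the replicate term, limma called 5 of 8 neutrophil, 4 of 6 conventional and 2 of 5 plasmacytoid dendritic cell markers higher and 4 of 5 stromal markers lower in replicate 2, where 15.8% of all genes tested were higher and 30.4% lower. Of the macrophage markers 4 of 9 were higher (Adgre1, Lyz2, Fcgr1 and Mertk) and 1 lower (Cd14), and of the osteoclast markers 3 of 8 were higher (Ctsk, Dcstamp and Itgb3). Of the other lists, 1 of 4 B lymphoid markers was higher, and 0 of 2 mast cell and basophil and 0 of 1 T and NK markers were called. The part of these cells in the interferon-stimulated levels was not tested.

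TNF in wild type had different signs in the 2 replicate numbers. Within replicate 1, 15 genes were higher and 33 lower after TNF (median -0.24 on the log2 scale, all genes tested -0.01), and within replicate 2, 40 were higher and 8 lower (median 0.44, all genes tested -0.22). Of the 48, 26 were lower in replicate 1 and higher in replicate 2. Higher in both were 14, a share close to the 27.5% of all genes tested. Lower in both were 7 (43.6% of all genes tested were), namely Irf9, Rtp4, Slfn9, Eif2ak2, Ifi204, Ifi27l2a and Sp100. Groups did not overlap for 2 genes, Slfn9 and Ifi27l2a, both lower after TNF (22.6% of all genes tested).

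Mx1 was an example of those higher in both: its CPM went from 2.26 and 37.9 at day 0 (replicates 1 and 2) to 3.39 and 86.4 after TNF. Oas3 split, from 43.2 and 305 to 19.6 and 366 CPM, down in replicate 1 and up in replicate 2. Isg15 went from 4.70 and 53.3 to 5.58 and 93.9 CPM, a step far smaller than the gap between the 2 libraries of a group. Lgals3bp, a secreted galectin-binding protein and the most abundant of the 48 by CPM, went from 281 and 688 to 430.5 and 1193 CPM.

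In this comparison limma called 0 of the 48 genes without a replicate term (background 0.812% higher and 0.369% lower). With the term it called 0 too (5.54% and 4.71%). At an unadjusted p under 0.05 it had 1 gene without the term, lower (6.02% of all genes tested). With the term 1 was higher and 2 lower (11.6% and 17.4%). edgeR called 0 with and without the term. Unadjusted, edgeR had 3 higher and 1 lower with it (14.4% and 14.3%) and 1 lower without it (4.78%). DESeq2 called 0 without the term (1 unadjusted, lower, 6.11%). With the term DESeq2 called 2, Slfn9 lower (background 9.51%) and Lgals3bp higher (11.4%). Mean differences were above 0 in 27 genes and below in 21 on the CPM scale, 34 and 14 after median-ratio rescaling, and 44 and 4 by edgeR or DESeq2 without the term, so the direction of the list depended on the scaling and the model. Its median on the CPM scale was 0.03, and leaving out 1 wild-type library moved it between -1.48 (without TNF replicate 2) and 1.64 (without TNF replicate 1) with no term, and between -0.26 and 0.41 for the same libraries with it. Here and below, a fit with no term and 1 library of a compared group left out sets 1 replicate number against both. The replicate difference of the 48 genes then moves the median by itself. For the 12 genes fixed by role (Isg15, Usp18, Ifit1, Ifit3, Mx1, Oas3, Rsad2, Slfn8, Irf7, Stat2, Irf9 and Cxcl10), differences ran from -0.43 (Irf9) to 0.90 (Ifit1). With the term, 6 of 8 osteoclast markers were called higher and 6 of 8 neutrophil markers lower after TNF (4 and 1 without it). Of 9 macrophage markers 1 was called higher (Lyz2) and 2 lower (Mrc1 and Fcgr1), against 0 and 1 without the term. The part of these cells in the levels of the 48 genes was not tested.

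In the knockout most of the 48 genes stood lower after TNF than at day 0 in both replicates, by different amounts. Within replicate 1, 42 were lower and 6 higher (median -0.52, all genes tested -0.04), and within replicate 2 all 48 were lower (median -1.89, all genes tested -0.15). Thus 42 of 48 were lower in both numbers, where 45.4% of all genes tested were. The 6 others (higher in replicate 1, lower in replicate 2) were Isg15, Ifit1, Ifi44, Lgals3bp, Epsti1 and Cxcl10. Cxcl10 was the only gene with a mean difference above 0. Groups did not overlap for 9 genes, all lower after TNF: Irf9, Stat2, Ifi35, Bst2, Slfn9, Dhx58, Ifi204, Ifi27l2a and Sp100 (25.2% of all genes tested).

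Whether these differences passed depended on the replicate term. Without it limma called 0 of 48 (background 3.09% higher and 2.01% lower), edgeR 0 and DESeq2 1 lower (background 5.72%). At an unadjusted p under 0.05, limma and edgeR had 1 each without it, lower (9.73% and 8.64% of all genes tested). With it limma called 18 lower and 0 higher (background 13.7% lower and 12.2% higher), edgeR 14 (12.1% lower) and DESeq2 28 (16.4% lower). The list median was -1.27, beside -0.10 for all genes tested. It turned to 0.38 with no term and without knockout day 0 replicate 2, a fit that sets replicate 1 alone at day 0 against both numbers after TNF. With the term it was -1.97 to -0.64 whichever library was left out. The 18 were Irf9, Stat2, Dhx58, Ifi204, Ifit2, Oas1a, Oas3, Eif2ak2, Mx2, Bst2, Slfn8, Slfn9, Dtx3l, Trim30a, Sp100, Xaf1, Ifi27l2a and Nmi.

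The size of the difference rested on single libraries. With the replicate term, the list median was -1.61 without replicate 1 of the knockout at day 0 and -0.90 without replicate 2. Of the knockout libraries after TNF, it was -1.97 without replicate 1, the shallowest library, and -0.64 without replicate 2. Leaving out any wild-type library left it at -1.27. Which genes passed also changed with the library left out, and the share of all genes tested that passed in those fits is not given here.

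Slfn9 had the largest fall of the genes called, from 66.1 and 124 CPM at day 0 to 20.6 and 11.7 after TNF. Both TNF libraries were below both day 0 libraries, and the log2 difference was -2.50 ± 0.46 (limma with the replicate term, adjusted p = 0.0116, and 0.0531 without it). Slfn8 fell from 24.3 and 254 to 11.1 and 47.6 CPM within the 2 numbers, a difference of -1.75 ± 0.32 (adjusted p = 0.0109 in the same limma fit). In Slfn8 the replicate 2 TNF library stayed above the replicate 1 day 0 library, so the groups overlapped.

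Sp100 went from 62.8 and 321 to 23.5 and 50.1 CPM with no overlap, a difference of -2.03 ± 0.32 (limma with the replicate term, adjusted p = 0.00711). Stat2 went from 83.4 and 373 to 33.7 and 78.7 CPM, -1.77 ± 0.33 (adjusted p = 0.0124, same limma fit). Dhx58 (LGP2), a regulator of RNA sensing, went from 46.5 and 174 to 20.1 and 35.0 CPM, -1.74 ± 0.34 (adjusted p = 0.0144, same limma fit). In all 3 the day 0 libraries were above the TNF libraries.

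Ifi204, a DNA-binding PYHIN protein, went from 79.3 and 506 to 33.0 and 67.0 CPM (-2.08 ± 0.60, limma with the replicate term, adjusted p = 0.0475). Oas3 went from 51.7 and 691 to 22.1 and 98.2 CPM (-2.01 ± 0.46, adjusted p = 0.0241, same limma fit), and Ifit2 from 16.8 and 784 to 10.96 and 84.2 CPM (-1.90 ± 0.55, adjusted p = 0.0475, same limma fit). Oas3 and Ifit2 overlapped between the groups, because replicate 2 after TNF was above replicate 1 at day 0. With the term, the difference of Ifi204 was -1.03 without knockout TNF replicate 2 and -3.13 without knockout TNF replicate 1, that of Oas3 -1.28 and -2.73 without the same libraries, and that of Ifit2 -0.92 without knockout day 0 replicate 2 and -2.88 without knockout day 0 replicate 1. Without the replicate term the adjusted p of these 8 genes ran from 0.0531 to 0.759 in limma, and with it all 8 calls were lost without knockout day 0 replicate 2 (adjusted p 0.0629 to 0.235).

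Among the 12 genes fixed by role, differences ran from -2.01 (Oas3) to 0.58 (Cxcl10), and 4 of the 12 passed with the term. By role, the IFIT family had the largest replicate 2 median (-3.21) beside -0.30 in replicate 1. Schlafens had -2.88 and -0.60, TRIM30 genes with Sp100 -2.67 and -1.05, and the PARP group with DTX3L -1.24 and -0.48. Across the 48 genes the differences in replicates 1 and 2 correlated weakly (Pearson r = 0.338, over genes that share these 4 libraries). In the same comparison limma with the term called 8 of 8 osteoclast markers higher, and 7 of 8 neutrophil and 3 of 5 plasmacytoid dendritic cell markers lower (7, 5 and 1 without it). Of all genes tested, 12.2% were higher and 13.7% lower with the term, and 3.09% and 2.01% without it. Macrophage markers fell too, 4 of 9 with the term (Adgre1, Mrc1, Fcgr1 and Mertk) and 2 without it (Mrc1 and Fcgr1), and 0 rose. With the term 2 of 4 B lymphoid markers were lower, and 2 of 2 mast cell and basophil, 1 of 1 T and NK and 1 of 6 conventional dendritic cell markers higher, while 0 of 5 stromal markers were called. The part of these cells in the fall of the 18 genes was not tested.

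**Figure D4:**
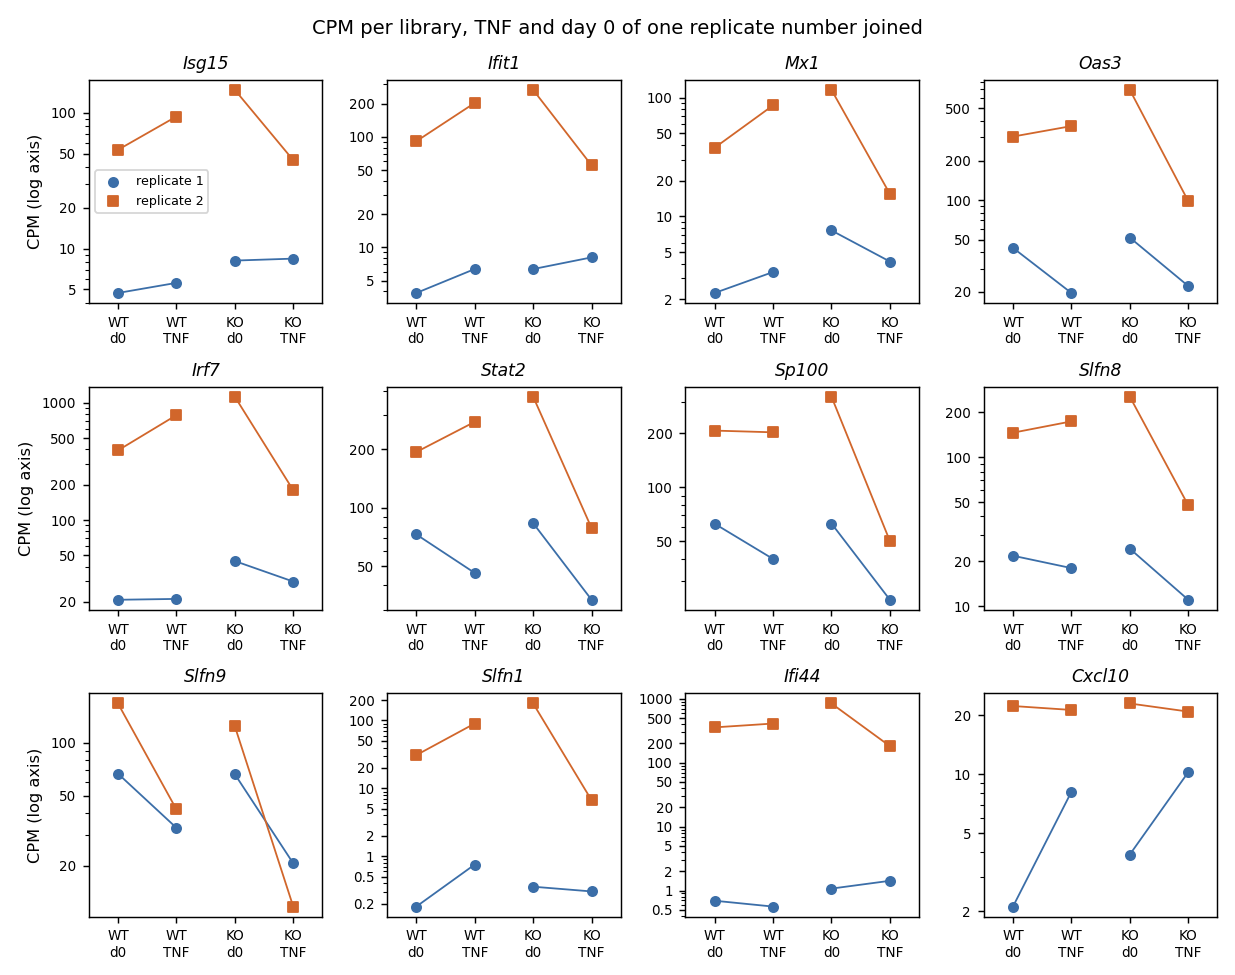
CPM of 12 of the genes in each library (log axis), with day 0 and TNF libraries of 1 genotype and 1 replicate number joined. Most orange lines (replicate 2) slope down steeply in the knockout, as for Irf7 from 1129.6 to 179.7 CPM, while blue lines (replicate 1) are flatter; Slfn9 slopes down in both, and Cxcl10 slopes up in blue only.

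Knockout cells at day 0 had higher levels of most of these genes than wild-type cells at day 0, in each replicate number. Within replicate 1, 42 were higher and 6 lower (median 0.28, all genes tested 0.03), and within replicate 2, 47 were higher and 1 lower (median 0.86, all genes tested -0.01). Of the 48, 42 were higher in both numbers (31.8% of all genes tested were) and 1 was lower in both, Slfn9 (25.9% were). The groups overlapped for each of the 48. The share of all genes tested that overlapped here is not given, so this is not read as a trait of these genes.

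Mx1 went from 2.26 and 37.9 CPM in wild type to 7.61 and 117 in the knockout (replicates 1 and 2). Ifit3 went from 1.90 and 102 to 5.50 and 372 CPM, and Irf7 from 20.8 and 393 to 44.6 and 1129.6 CPM. Higher in the knockout in both numbers, each of these still differed less between genotypes than between the 2 libraries of a genotype. Trim30d had the highest replicate 2 difference of the 48 (2.66), from 0.364 and 9.46 to 0.858 and 62.5 CPM, and Mx1 the highest in replicate 1 (1.56). Epsti1 split, from 27.8 and 47.9 to 16.9 and 98.3 CPM, lower in replicate 1 and higher in replicate 2.

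limma called 0 of the 48 genes at day 0, without the replicate term (background 0.0% in each direction) and with it (0.0% higher and 0.0082% lower). At an unadjusted p under 0.05, it had 0 genes without the term and 7 with it, all higher (3.49% of all genes tested). edgeR and DESeq2 called 0 as well. With the term they had 9 and 14 genes at an unadjusted p under 0.05, all higher (3.97% and 4.41% of all genes tested). Without the term they had 0 each. The list median was 0.57 beside 0.01 for all genes tested, with or without the term. With no term it was -0.80 without knockout day 0 replicate 2 and -0.55 without wild-type day 0 replicate 1, and with the term it was 0.34 to 0.82 whichever library was left out. For the 12 genes fixed by role, the differences ran from 0.30 (Irf9) to 1.59 (Ifit3).

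After TNF most of the 48 genes stood lower in the knockout than in wild type in replicate 2, and not in replicate 1. Within replicate 1, 26 genes were higher and 22 lower in the knockout (median 0.04, all genes tested 0.00), and within replicate 2, 1 was higher and 47 lower (median -1.47, all genes tested 0.04). The 1 exception was Nmi, a partner of Ifi35. Of the 48, 21 were lower in both numbers (35.4% of all genes tested were), 0 higher in both, and 26 higher in replicate 1 and lower in replicate 2. Groups did not overlap for Bst2 and Slfn9, both lower in the knockout (16.1% of all genes tested).

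Irf7 after TNF stood at 21.2 and 786 CPM in wild type and 29.8 and 179.7 in the knockout. Isg15 stood at 5.58 and 93.9 and 8.42 and 44.8 CPM, and Usp18 at 3.65 and 102 and 3.35 and 18.7 CPM. For Irf7 and Isg15 the replicate 1 libraries had the knockout above wild type and the replicate 2 libraries had it below. Slfn1 had the largest replicate 2 difference, at 0.757 and 90.2 and 0.304 and 6.70 CPM.

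Sp100 was the single call of limma with the replicate term. It stood at 39.8 and 203 CPM in wild type and 23.5 and 50.1 in the knockout after TNF. The knockout was lower in both numbers, although its replicate 2 library was above wild-type replicate 1, and the log2 difference was -1.38 ± 0.32 (limma with the replicate term, adjusted p = 0.0483, and 0.815 without it; background 3.75% lower and 5.53% higher). The difference was -0.85 without knockout TNF replicate 2 and -1.91 without knockout TNF replicate 1 in that fit, and ran from -2.54 to -0.21 with no term when 1 library was left out. That call was lost when any library but knockout TNF replicate 1 was left out (adjusted p 0.0678 to 0.320), in edgeR (adjusted p = 0.0630) and in limma after median-ratio rescaling (adjusted p = 0.0565). Without the term limma and edgeR called 0 (background 0.0082% higher and 0.0% lower in limma), and DESeq2 0. At an unadjusted p under 0.05 and without the term, limma and edgeR had 0 and 0. DESeq2 without the term had 1, lower (6.54% of all genes tested). With it edgeR called 1, Slfn1 (background 2.86% lower), and DESeq2 8, all lower (8.81%). Sp100 was among those 8, at -1.43 (DESeq2 adjusted p = 0.00178). The list median was -0.67 (all genes tested 0.02). With no term it turned to 0.89 without wild-type TNF replicate 2 and to 0.22 without knockout TNF replicate 1, and with the term it was -1.27 to -0.12 over the libraries left out. Of the 12 genes fixed by role, differences ran from -1.27 (Slfn8) to 0.14 (Cxcl10). With the term all 8 osteoclast markers and 1 of 2 mast cell and basophil markers (Tpsab1) were higher in the knockout here, and 3 of 9 macrophage markers (Lyz2, Cd14 and Fcgr1) and 1 of 8 neutrophil markers (Camp) lower. Without the term limma called 0 in each of these 4 lists. The part of these cells was not tested.

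**Figure D5:**
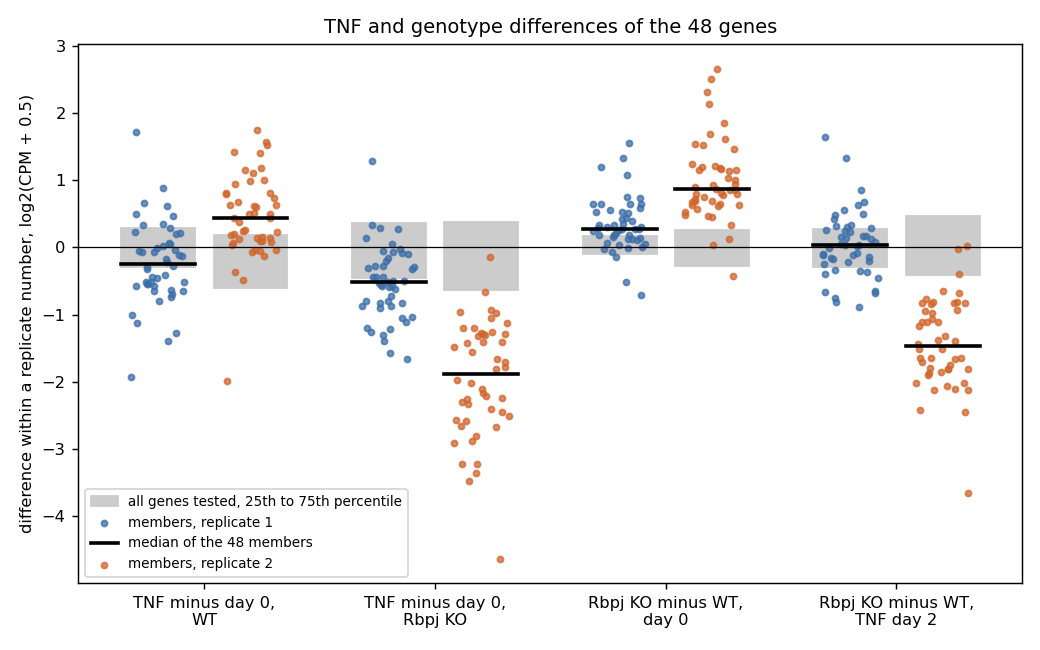
TNF differences in each genotype and genotype differences at each time (x axis) for the 48 genes within replicate 1 (blue) and replicate 2 (orange), as log2(CPM + 0.5) differences, with the median as a black bar and the middle 50% of all genes tested as a grey box. Most orange points lie above 0 for TNF in wild type (median 0.44) and for the knockout at day 0 (0.86), and below 0 for TNF in the knockout (-1.89) and for the knockout after TNF (-1.47), while the blue medians stay within -0.52 to 0.28.

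The difference of the TNF responses, knockout minus wild type, was below 0 in the mean for all 48 genes. Within replicate 1 it was below 0 for 42 genes (median -0.28, all genes tested -0.04) and within replicate 2 for all 48 (median -2.41, all genes tested 0.08). So 42 of 48 were below 0 in both numbers, where 36.0% of all genes tested were. For 10 of the 48 the TNF difference itself had opposite signs by genotype, above 0 in wild type and below 0 in the knockout within both numbers, against 4.69% of all genes tested. In replicate 1 some of these differences were near 0, such as 0.02 for Irf7 in wild type and -0.02 for Samd9l in the knockout. Slfn1 had the lowest value in replicate 2 (-6.16) and Mx1 in replicate 1 (-1.30), and Rtp4 was highest in replicate 1 (1.05).

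No gene of the 48 passed in limma, without the replicate term or with it (background 0.0% in each direction in either fit). At an unadjusted p under 0.05, limma had 0 genes without the term. With the term it had 24, all below 0, where 8.57% of all genes tested were. edgeR called 0, and had 0 unadjusted without the term and 26 with it, all below 0 (9.36% of all genes tested). DESeq2 called 0 without the term (0 unadjusted) and 8 with it, all below 0 (background 4.25% below 0): Ifit2, Mx1, Stat2, Trim30d, Slfn1, Slfn8, Zbp1 and Sp100. The list median was -1.35 (all genes tested 0.01). With no term it turned to 0.20 without wild-type TNF replicate 2 and to 0.20 without knockout day 0 replicate 2, and with the term it was -1.89 to -0.80 over the libraries left out.

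Upstream of the 48 genes, the interferon genes themselves were nearly absent from these libraries. Of 10 ligand genes listed, 0 passed the filter and 8 had 0 reads in all 8 libraries, among them 5 interferon-alpha genes and both interferon-lambda genes. Ifnb1, interferon-beta, had 2 reads in wild type after TNF and 2 in the knockout after TNF, both in replicate 2, and 0 elsewhere. Ifng, interferon-gamma, had 1 and 11 reads in wild type after TNF (replicates 1 and 2) and 1 in knockout TNF replicate 2. A count of 0 allows up to 3 reads, 0.0841 to 0.304 CPM in these libraries, so low levels were not detectable.

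Receptors and signalling genes (19 of 19 kept) differed between the replicate numbers in both directions. With the replicate term, limma called 6 higher and 3 lower in replicate 2 (15.8% and 30.4% of all genes tested), with a median of 0.29 beside -0.15 for all genes tested. Ifnar2, a receptor chain, stood at 142, 123, 165 and 93.9 CPM in the replicate 1 libraries and 175, 152, 258 and 90.5 CPM in the replicate 2 libraries, with the 2 numbers overlapping. After TNF in the knockout 4 of the 19 fell with the term (Ifnar2, Irf2, Irf5 and Irf8) and 0 rose, where 13.7% of all genes tested were lower and 12.2% higher, and without the term 0 were called.

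Sensors and adaptors outside the 48 (17 kept) had 8 higher and 0 lower in replicate 2 (15.8% and 30.4% of all genes tested), with a median of 0.48. Tlr7, the endosomal receptor for single-stranded RNA, stood at 207, 125, 207 and 54.9 CPM in the replicate 1 libraries and 419, 378, 545 and 99.1 CPM in the replicate 2 libraries. It was higher in replicate 2 in each group, and fell after TNF in the knockout by 2.18 on the log2 scale (limma with the replicate term, adjusted p = 0.00173, and 0.153 without it). In that comparison 8 of the 17 fell and 2 rose with the term (13.7% and 12.2% of all genes tested). Without it 1 was called lower (Tlr9) and 0 higher (2.01% and 3.09% of all genes tested).

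Guanylate-binding proteins and IRG GTPases, which attack pathogen vacuoles and respond to interferon-gamma as well, were higher in replicate 2 throughout. All 13 kept of 14 listed were called higher in replicate 2 by limma (median 2.55), where 15.8% of all genes tested were higher and 30.4% lower. Gbp4, Gbp8 and Tgtp2 passed the filter only with the help of replicate 2, where they were higher, so their calls are no independent support. Summed over all 14 listed, their CPM reached 101 and 492 (replicates 1 and 2) for wild type at day 0 and 98.8 and 1067 after TNF. In the knockout the sums were 143 and 1324 CPM at day 0 and 143 and 623 after TNF. After TNF 3 rose in wild type (Gbp2, Gbp5 and Gbp6) and 3 fell in the knockout (Gbp9, Irgm2 and Igtp), both with the term (5.54% of all genes tested rose in wild type and 13.7% fell in the knockout), and without it 0 were called in either genotype. Of 39 further interferon-stimulated genes kept, of 40 listed, 30 were higher and 0 lower in replicate 2 (median 1.36, with 15.8% and 30.4% of all genes tested). Of these 30, Ifit3b, Ifit1bl1, Ifi44l, Gm4951, Apol9b and Cxcl9 also passed the filter only with the help of replicate 2. After TNF in the knockout 19 of the 39 fell and 1 rose with the term (median -1.06, with 13.7% and 12.2%). All of these TNF calls were lost without it.

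Some of the 48 genes share sequence with relatives, and how shared reads were counted was not given in the sources used here. By the share of 50-base stretches of a gene's transcripts found in another gene, Oas1a had 57.6% (Oas1g), Ifit3 51.2% (Ifit3b), Oas1g 45.7% and Ifi204 20.02%. In all, 12 genes had over 5% and 20 had none. Levels of the former are uncertain between relatives, and antisense or overlapping genes could not be separated.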

How the data were processed

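The samples were 8 libraries of poly-A RNA in 4 groups of 2. CPM values, deposited by the authors in a table of 24421 genes, were the starting point. The submitters' processing notes name fastp, HISAT2, HTSeq, edgeR and the build mm10. In the sources used here, their versions and settings, the annotation and the counting of strand and shared reads were not given. In each library 100% of the deposited CPM were multiples of 1 read (within 0.01 of a whole number), which gave back the reads for the count tests.

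limma 3.58.1 in R 4.3.3 (linear models, eBayes with a mean trend, 2-sided) was fitted to log2(CPM + 0.5) for the 12194 genes that reached 1 CPM in 2 or more libraries. Group was the term, all 8 libraries shared 1 spread, and p-values were Benjamini-Hochberg adjusted over all genes, with a threshold of 0.05. This scale understates differences of low genes. edgeR 4.0.16 (quasi-likelihood) and DESeq2 1.42.0 on the recovered reads were alternatives, beside pseudocounts of 0.1 and 1, other filters, median-ratio rescaling and leaving out each library. The fits were tested on simulated data.

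Replicate numbers were taken to pair the libraries. The design names independent experiments, no label ties a number to one, and differences between the replicates correlated across genes for all 6 pairs of groups (Pearson r 0.577 to 0.805, and 0.565 to 0.794 without the 48 genes). Fits with this number as a block, called the replicate term, therefore stand beside those without it. The replicate comparison rests on 4 pairs.

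The 48 members and the pathway and marker lists were chosen with earlier results of these data known. Tested log2 differences are given for up to 8 members called per comparison, those of largest size, and as ranges for 12 members fixed by role. Genes outside the 48 come from lists written by name. Promoters are from the RefSeq table of GRCm38.p6 and positions from GENCODE M21 (GRCm38). Protein identity between relatives was not analysed here. Shared 50-base stretches of transcripts replaced it, a choice made after seeing the data. Intervals and floors (3 reads) cover counting error only. The list counts include a gene whose own values are not reported here.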

Additional observations from a re-analysis of the deposited data

Results flagged for a closer look

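For 10 of the 48 genes, TNF had opposite signs in the 2 genotypes in every library pair: higher after TNF in wild type within both replicate numbers, and lower in the knockout within both. Over all genes tested, 4.69% did so. The values below are the mean difference of the TNF responses, knockout minus wild type, on the log2(CPM + 0.5) scale. They were -3.57 for Slfn1, -2.68 for Mx1, -2.65 for Trim30d, -2.16 for Ifit3, -2.15 for Zbp1 (a sensor of Z-form nucleic acids) and -2.12 for Irf7. They were -1.46 for Ddx58 (RIG-I) and -1.26 for Ifih1 (MDA5), both sensors of viral RNA, -0.84 for Samd9l and -0.79 for Ifi35. As a test of the difference itself, none of the 10 passed in limma or edgeR with or without the replicate term, and 4 of them (Mx1, Trim30d, Slfn1 and Zbp1) passed in DESeq2 with it. Within replicate 1 the wild-type side was small for some, 0.02 for Irf7 and 0.06 for Ifih1. The knockout side was small for others, -0.02 for Samd9l, -0.05 for Ddx58 and -0.09 for Slfn1. After median-ratio rescaling, 7 of the 48 genes instead of 6 were above 0 in the knockout within replicate 1. The gene added was Samd9l, one of the 10 above, so its opposite signs by genotype were not kept on that scale. Slfn1 and Trim30d were near the detection limit in replicate 1, with 3 to 27 and 6 to 24 reads per library.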

How the results depend on the processing

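The replicate comparison kept its direction in every setting run, with a list median of 2.32 to 2.77 when 1 library was left out. Counts called in the other comparisons were 0 without the replicate block, apart from 1 for TNF in the knockout in DESeq2. With the replicate block, TNF in the knockout gave 18 genes called. It gave 18 and 17 with pseudocounts 0.1 and 1, 12 with no filter, 17 over genes averaging 5 CPM or more, 12 after median-ratio rescaling, 14 in edgeR, 28 in DESeq2 and 14 with only its 4 libraries. Leaving out wild-type day 0 replicates 1 and 2 gave 16 and 15, wild-type TNF replicates 1 and 2 gave 19 and 19, knockout day 0 replicates 1 and 2 gave 8 and 0, and knockout TNF replicates 1 and 2 gave 37 and 4. For TNF in wild type the block gave 0, but 2 in DESeq2, 2 with only its 4 libraries and 0 to 1 when 1 library was left out. For the knockout after TNF it gave 1, also 1 with either pseudocount, over genes averaging 5 CPM or more and in edgeR, 8 in DESeq2, and 0 to 18 when 1 library was left out. For the difference of the TNF responses it gave 8 in DESeq2 and 0 to 11 when 1 library was left out. Pairing numbers by the block changed no other call. Without knockout day 0 replicate 2 and without the block, the TNF difference of Ifit2 in the knockout turned to 0.85, within a range of -4.65 to 0.85 over all libraries left out. The causes were not tested. With 2 libraries a group, a gene that did not pass is not shown to be unchanged.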
